A study of Ovis aries with 16 samples.

Results

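Adipokines are hormones and other signalling proteins that fat tissue releases into the blood. The genes described here are 7 of the 28524 genes in the deposited count table, chosen by name: ADIPOQ, LEP, CFD, RBP4, NAMPT, RETN and APLN. All 7 were present, 6 had enough counts to be tested in every comparison, and RETN was removed by the filter on low counts each time. The data are RNA sequencing of fat from female sheep whose mothers received bisphenol A (BPA), a plastics chemical with oestrogen-like activity, or only the vehicle. BPA mothers were injected under the skin with 0.5 mg/kg per day in corn oil from day 30 to day 90 of a pregnancy of about 147 days, and control mothers received corn oil by the same route and days. The daughters of both groups ate a maintenance diet after weaning. They were about 21 months old at collection, which came 24 hours after the last of 2 prostaglandin F2α injections given 11 days apart, in the follicular phase. Subcutaneous fat came from the sternal region and visceral fat from the mesenteric fat around the rumen, a forestomach. The 16 libraries form 4 groups of 4: subcutaneous control (902, 924, 928 and 931), subcutaneous BPA (918, 922, 941 and 977), visceral control (902, 908, 924 and 928) and visceral BPA (910, 918, 977 and 984). The numbers open the sample titles, and the labels do not say that a number is an animal. The p-values therefore measure the spread between these samples.

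Adiponectin, encoded by ADIPOQ, is made almost entirely by fat cells, circulates as multimers and raises insulin sensitivity through the receptors ADIPOR1 and ADIPOR2. Leptin (LEP) is released in proportion to fat mass and reports energy stores to the hypothalamus through LEPR. Adipsin (CFD) is complement factor D, the serine protease that starts amplification in the alternative complement pathway, and RBP4 carries retinol (vitamin A) in blood. NAMPT, also called visfatin, is the rate-limiting enzyme of the NAD salvage pathway inside cells and is also secreted. Apelin (APLN) is a peptide that acts on blood vessels and heart through APLNR. Resistin (RETN) is a small cysteine-rich protein that is produced by different cell types in different mammals.

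The files give each gene model with the count. ADIPOQ lies on sequence NC_040252.1 from 218920656 to 218933218 on the minus strand, in 4 exons of 2096 bases. LEP lies on NC_040255.1 from 101297507 to 101302245 on the plus strand, in 2 exons of 2900 bases. NAMPT is on the same sequence, from 53319371 to 53362204 on the minus strand, in 11 exons of 4396 bases. CFD and RETN share NC_040256.1 and lie on the plus strand, CFD from 45523132 to 45526551 in 5 exons of 2042 bases and RETN from 14825961 to 14827474 with 7 exon entries of 701 bases. RBP4 lies on NC_040273.1 from 16938073 to 16944695 on the minus strand, in 6 exons of 1195 bases. APLN lies on NC_040278.1 from 121345900 to 121355115 on the minus strand, with 6 exon entries of 3022 bases. CFD is the only one of the 7 whose exons overlap those of another gene: 8 of its 2042 exon bases are shared with MED16 on the opposite strand, and MED16 was called in none of the comparisons. In the newer RefSeq annotation ARS-UI_Ramb_v3.0 all 7 symbols have an entry, and the APLN entry is classed as a long non-coding RNA while the other 6 are protein coding.

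Library totals were 3046126 to 6223460 counts in subcutaneous fat and 6768945 to 14305764 in visceral fat, so low values are less precise in subcutaneous fat. The defining adipocyte markers PLIN1, FABP4, CIDEC and LIPE were found in all 16 libraries, PLIN1 at 2687 to 5132 CPM (counts over the scaled library total, times 1000000). Single libraries differed in the summed CPM of marker genes. Subcutaneous controls 924 and 902 had the lowest adipocyte sums of their group (11276 and 15250.0, against 18168 and 22874) and its highest lymphocyte sums (29.6 and 43.4, against 14.7 and 16.1). Visceral BPA 977 had the lowest adipocyte sum (15232) and the highest stromal (9169) and mesothelial (343) sums of its group. In bulk tissue, fewer cells of a type and less RNA per cell cannot be told apart.

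Per kilobase of exon, ADIPOQ had the highest level of the 7 in every group, RBP4 the next and LEP the third. ADIPOQ averaged 2648 ± 755 CPM per kilobase in subcutaneous controls (SD, n = 4) and 5104 ± 1101 in visceral controls, against 436 ± 149 and 834 ± 180 for RBP4 and 97.4 ± 65.2 and 176 ± 62.0 for LEP. The ranges of these 3 did not overlap within any group. CFD, NAMPT, APLN and RETN followed in that order, except that NAMPT lay above CFD in subcutaneous BPA fat. Neighbours whose ranges overlapped were CFD and NAMPT in both subcutaneous groups, APLN and RETN in subcutaneous controls, LEP and NAMPT in subcutaneous BPA fat, and LEP and CFD as well as NAMPT and APLN in visceral BPA fat. By plain count, ADIPOQ ranked between first and seventh of all genes in each library and made up 82.3 to 90.9% of the counts of the 7. In visceral BPA 984 it was the gene with the most counts. Together the 7 took 0.676 ± 0.169% of counts in subcutaneous controls, 0.694 ± 0.254% in subcutaneous BPA, 1.18 ± 0.224% in visceral controls and 0.965 ± 0.203% in visceral BPA fat, and these shares follow ADIPOQ.

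**Figure D1:**
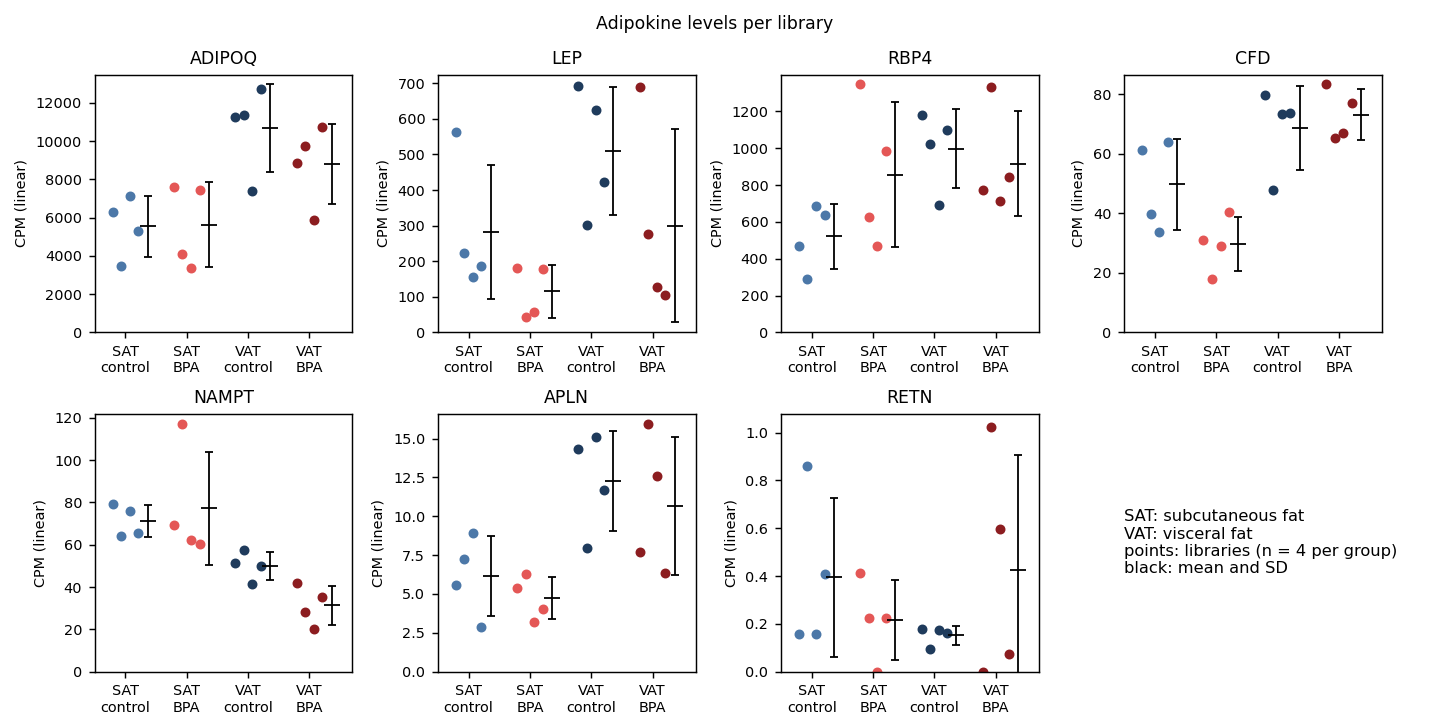
Level of each adipokine in CPM (linear axis, 1 panel per gene), with 1 point per library and the mean ± SD of each group of 4. In CPM, visceral controls lie above subcutaneous controls for ADIPOQ and RBP4 without overlap, and NAMPT runs the other way. As plain shares of counts, ADIPOQ and RBP4 overlap between these groups.

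ADIPOQ had 6277, 3455, 7146 and 5323 CPM in subcutaneous controls 902, 924, 928 and 931. In subcutaneous BPA 918, 922, 941 and 977 it had 7624, 4095, 3357 and 7456 CPM. Both subcutaneous groups spread about as widely, and their ranges overlapped almost throughout. In visceral controls 902, 908, 924 and 928 it had 11289, 11371, 7384 and 12745 CPM, and in visceral BPA 910, 918, 977 and 984 it had 8849, 9767, 5898 and 10719 CPM. The lowest visceral control, 924, still exceeded the highest subcutaneous control, while visceral BPA 977 lay below subcutaneous BPA 918 and 977.

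RBP4, the retinol carrier, had 472, 291, 685 and 636 CPM in the subcutaneous controls, in the same library order. The subcutaneous BPA libraries had 1347, 625, 469.9 and 987 CPM. Library 918 was the highest of all subcutaneous libraries, and 922 and 941 fell within the controls. The visceral controls had 1180.2, 1022, 689 and 1096 CPM, and visceral BPA fat had 773, 1334, 715 and 843 CPM. Visceral values of both treatments covered a similar range.

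LEP varied most of the 6 tested genes within every group, with an SD of 35.3 to 90.5% of the mean. The subcutaneous controls had 563, 224, 155 and 188 CPM, so 902 stood far above the others. Subcutaneous BPA fat had 182, 44.2, 56.9 and 178 CPM, with 918 and 977 inside the control range and 922 and 941 below it. The visceral controls had 691, 302, 625 and 423 CPM, and visceral BPA fat had 689.8, 275, 127 and 106 CPM. Visceral BPA 910 matched the highest control and the other 3 lay below every visceral control.

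CFD had 61.2, 39.6, 33.8 and 64.0 CPM in subcutaneous controls and 31.1, 18.0, 29.0 and 40.4 CPM in subcutaneous BPA fat. BPA 977 reached into the control range and the other 3 lay below it. It had 79.6, 47.9, 73.4 and 73.7 CPM in visceral controls and 83.3, 65.4, 66.8 and 76.9 CPM in visceral BPA fat, where all 4 libraries lay above every subcutaneous BPA library.

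NAMPT had 79.4, 64.4, 76.0 and 65.7 CPM in subcutaneous controls and 69.2, 117, 62.1 and 60.6 CPM in subcutaneous BPA fat, where 922 stood apart. It had 51.2, 57.4, 41.4 and 49.8 CPM in visceral controls. Visceral BPA libraries had 41.8, 28.1, 20.1 and 35.3 CPM, and only 910 reached the lowest control. Every visceral library lay below every subcutaneous one.

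APLN had 5.61, 7.23, 8.93 and 2.86 CPM in subcutaneous controls and 5.36, 6.32, 3.22 and 4.04 CPM in subcutaneous BPA fat. It had 14.3, 7.95, 15.1 and 11.7 CPM in visceral controls and 7.69, 15.9, 12.6 and 6.32 CPM in visceral BPA fat. The visceral values were mostly higher, and control 908 at 7.95 CPM lay below subcutaneous control 928 at 8.93 CPM. RETN had 34 counts over all 16 libraries: 9 in subcutaneous controls, 4 in subcutaneous BPA, 7 in visceral controls and 14 in visceral BPA fat, with no count in 2 libraries. Exact two-sided permutation tests of RETN CPM, 4 libraries against 4, gave p = 0.486 and 0.429 for BPA against control in subcutaneous and visceral fat. For visceral against subcutaneous fat the same exact tests gave p = 0.286 in control and 0.486 in BPA fat. The smallest p this design allows is 0.0286, all 4 are 0.486 after Benjamini-Hochberg adjustment, and a difference in RETN was not detectable at this depth.

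The comparison of depots asks how subcutaneous and visceral fat differ. In control fat, ADIPOQ and RBP4 were higher and NAMPT lower in visceral than in subcutaneous fat. ADIPOQ rose by 0.96 ± 0.25 on the log2 scale (SE; 1.94-fold, 95% interval 1.33 to 2.82; adjusted p = 0.0286 by edgeR's quasi-likelihood test, as for all adjusted p-values unless named otherwise). RBP4 rose by 0.94 ± 0.26 (1.92-fold, 1.29 to 2.87; 0.0375), and NAMPT fell by 0.51 ± 0.14 (0.70-fold, 0.569 to 0.870; 0.0357). These were 3 of the 6 tested adipokines, where 13.3% of all 14456 tested genes passed the same threshold (7.17% higher and 6.16% lower in visceral fat). The same 3 had groups that did not overlap in CPM, as did 19.9% of all tested genes. As plain shares of counts, without the scaling factors, ADIPOQ and RBP4 did overlap. Visceral control 924 had 0.711% and 0.0664%, and subcutaneous control 928 had 0.736% and 0.0706%. The estimates of the other 3 also pointed to higher visceral levels without passing the test: APLN at 0.99 ± 0.33 (adjusted p = 0.07), LEP at 0.86 ± 0.39 (0.167) and CFD at 0.48 ± 0.23 (0.187). The visceral and subcutaneous control libraries 902, 924 and 928 share title numbers, and in each of these 3 pairs all 6 genes moved in the direction of their estimate. Visceral over subcutaneous ratios were 1.78 to 2.14 for ADIPOQ, 1.599 to 2.50 for RBP4, 1.31 to 2.56 for APLN, 1.23 to 2.79 for LEP and 1.301 to 2.18 for CFD. For NAMPT they were 0.643, 0.645 and 0.656. With the title number as a replicate block, all 6 passed the test, including LEP at 1.08 (adjusted p = 0.00811), CFD at 0.80 (0.00882) and APLN at 0.93 (0.0348). The depot estimates of that fit come from these 3 pairs alone, which leaves little to measure the spread by. In a limma voom fit of all 16 libraries with the number as a block, chosen after seeing the data, ADIPOQ (0.0221) and RBP4 (0.0236) passed, and NAMPT (0.0557), APLN (0.0508), CFD (0.079) and LEP (0.203) did not.

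The 3 calls in control fat were close to the threshold. Without visceral control 902, 908 or 928, the adjusted p of ADIPOQ was 0.0656, 0.066 or 0.0857, and without subcutaneous control 924 or 931 it was 0.053 or 0.055. RBP4 was not called without visceral control 902 (0.0912), 908 (0.078) or 928 (0.0968) or subcutaneous control 902 (0.0871) or 924 (0.0652). NAMPT was not called without visceral control 902 (0.0774), 924 (0.0743) or 928 (0.0865), or subcutaneous control 902 (0.0872), 928 (0.0908) or 931 (0.0562). Omission brought in LEP without subcutaneous control 902 (1.44, adjusted p = 0.0113) and APLN without subcutaneous control 928 (1.23, 0.0473). Without subcutaneous controls 902 and 924 together, ADIPOQ was at 0.77 (0.0981), RBP4 at 0.59 (0.154), NAMPT at -0.51 (0.103) and LEP at 1.56 (0.0218), so that LEP alone was called. This joint omission, used again below, was not planned. It leaves fewer controls, so a call can be lost while the estimate holds. In a fit of all 16 libraries ADIPOQ kept its call, while RBP4 (0.0711) and NAMPT (0.153) did not. Without a filter on low counts NAMPT missed the threshold (0.0524), and DESeq2 added APLN (0.0263).

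In BPA fat, CFD was higher and NAMPT lower in visceral than in subcutaneous fat. CFD rose by 1.3 ± 0.23 (2.46-fold, 95% interval 1.74 to 3.48; adjusted p = 0.0098) and NAMPT fell by 1.3 ± 0.27 (0.406-fold, 0.267 to 0.616; 0.0184). That is 2 of 6 tested adipokines, against 9.07% of 13782 tested genes (5.13% higher and 3.94% lower in visceral fat). In CPM, 3 of 6 had groups without overlap (CFD, NAMPT and APLN), against 18.6% of tested genes. For APLN this rests on 6.3225 CPM in visceral BPA 984 against 6.316 CPM in subcutaneous BPA 922. As plain shares of counts these libraries stood the other way (0.000587% and 0.000649%), so the APLN groups overlapped. CFD stayed past the threshold without any 1 library (adjusted p 0.00854 to 0.0356). NAMPT lost its call without subcutaneous BPA 922, the library at 117 CPM (-1.03, 0.0561). APLN had 1.15 ± 0.37 (adjusted p = 0.0738), and it was called by DESeq2 (0.033) and in the fit of all 16 libraries (0.0426). ADIPOQ had 0.64 ± 0.31 (0.205), LEP 1.37 ± 0.63 (0.186) and RBP4 0.09 ± 0.32 (0.883; 95% interval 0.653- to 1.75-fold). Of the numbers found in both BPA depots, 918 and 977, both had more CFD (2.10 and 1.65 times) and APLN (2.98 and 3.12 times) and less NAMPT (0.406 and 0.331 times) in visceral fat. ADIPOQ was 1.28 times higher in visceral fat of 918 and 0.791 times the subcutaneous level in 977, and RBP4 was 0.990 and 0.724 times.

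**Figure D2:**
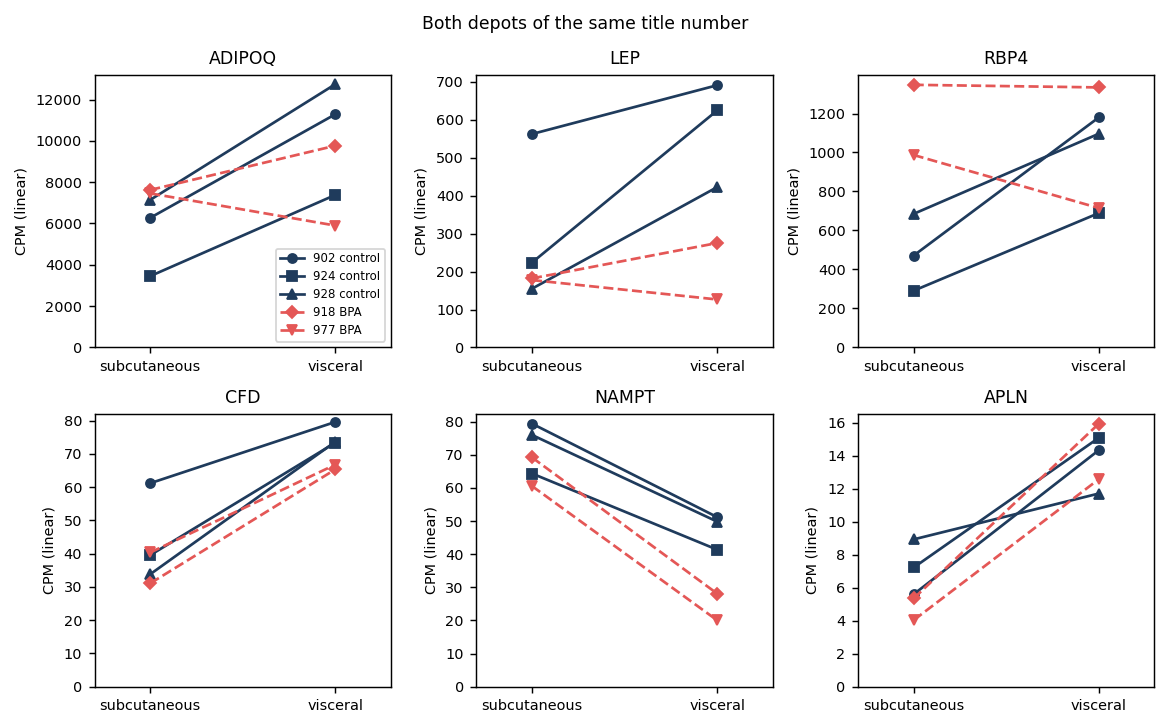
Visceral and subcutaneous CPM (linear axis, 1 panel per gene) of the 5 title numbers found in both depots, with a line joining each number. NAMPT falls from subcutaneous to visceral fat in 5 of 5 lines, CFD and APLN rise in 5 of 5, and ADIPOQ, LEP and RBP4 rise in all 3 control lines but not in both BPA lines.

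The comparison of treatments asks whether exposure before birth was followed by a difference in adult fat. In subcutaneous fat, none of the 6 tested adipokines passed the test, where 0.709% of 13535 tested genes (96) did. LEP had the largest estimate, at -1.29 ± 0.51 (0.409-fold, 95% interval 0.187 to 0.895; adjusted p = 0.293), from 282 ± 189 to 115 ± 74.9 CPM. CFD had -0.74 ± 0.27 (0.60-fold, 0.399 to 0.9004; 0.257), from 49.7 ± 15.2 to 29.6 ± 9.17 CPM. RBP4 pointed the other way at 0.72 ± 0.34 (1.65-fold, 0.985 to 2.75; 0.365), from 521 ± 178 to 857 ± 392 CPM. ADIPOQ had 0.02 ± 0.31 (0.983; 0.633- to 1.63-fold), NAMPT 0.12 ± 0.21 (0.841; 0.790- to 1.49-fold) and APLN -0.38 ± 0.37 (0.693; 0.437- to 1.36-fold). No adipokine had groups without overlap, as 7.45% of tested genes did. Without subcutaneous controls 902 and 924 together, LEP was at -0.56 (0.707; -0.71 and 0.711 without 902 alone), RBP4 at 0.38 (0.723) and CFD at -0.71 (0.454). Without NAMPT's highest library, BPA 922, its estimate was -0.15 (0.768).

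In visceral fat, none of the 6 passed the test either, and edgeR called 0 of 14774 tested genes (0%). DESeq2 called 5 genes, none of them an adipokine, and 7.47% of genes had an unadjusted p under 0.05. NAMPT had the smallest p of the 6, unadjusted 0.0123 and adjusted 0.658, with -0.67 ± 0.22 (0.629-fold, 95% interval 0.447 to 0.884) from 49.97 ± 6.60 to 31.3 ± 9.36 CPM. LEP had -0.76 ± 0.53 (0.701), from 510 ± 180 to 299 ± 271 CPM, and the interval of 0.263- to 1.32-fold is wide. Without visceral BPA 910, LEP was at -1.59 (adjusted p = 0.392), and over all omissions of 1 library its estimate ran from -1.59 to -0.483. ADIPOQ had -0.28 ± 0.23 (0.740; 0.576- to 1.18-fold), RBP4 -0.12 ± 0.24 (0.876; 0.640- to 1.32-fold), CFD 0.09 ± 0.18 (0.876; 0.811- to 1.40-fold) and APLN -0.21 ± 0.32 (0.855; 0.526- to 1.42-fold). Groups overlapped for all 6, and 4.03% of tested genes had groups without overlap.

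Whether BPA and control differed by another amount in visceral than in subcutaneous fat was tested over all 16 libraries, and no adipokine passed (0% of 14793 genes called by edgeR, 11 genes by DESeq2, and 6.2% with an unadjusted p under 0.05). NAMPT had a difference of -0.78 ± 0.32 (unadjusted p = 0.0245, adjusted 0.738), CFD 0.83 ± 0.34 (0.0247, adjusted 0.738) and RBP4 -0.84 ± 0.45 (adjusted 0.859). ADIPOQ (-0.30 ± 0.41), LEP (0.52 ± 0.82) and APLN (0.16 ± 0.51) had adjusted p-values of 0.9992, 0.9992 and 0.9996. This edgeR test left out the title numbers. The limma voom fit with the number as a block called 0 of 14793 genes for the difference, with CFD at 0.73 (adjusted p = 0.737) and LEP at 0.08 (0.995). A depot difference of ADIPOQ or RBP4 that passed the test in control fat and not in BPA fat, or one of CFD that did the reverse, is therefore not shown to differ between treatments. The depot comparisons and the treatment comparisons share their libraries.

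**Figure D3:**
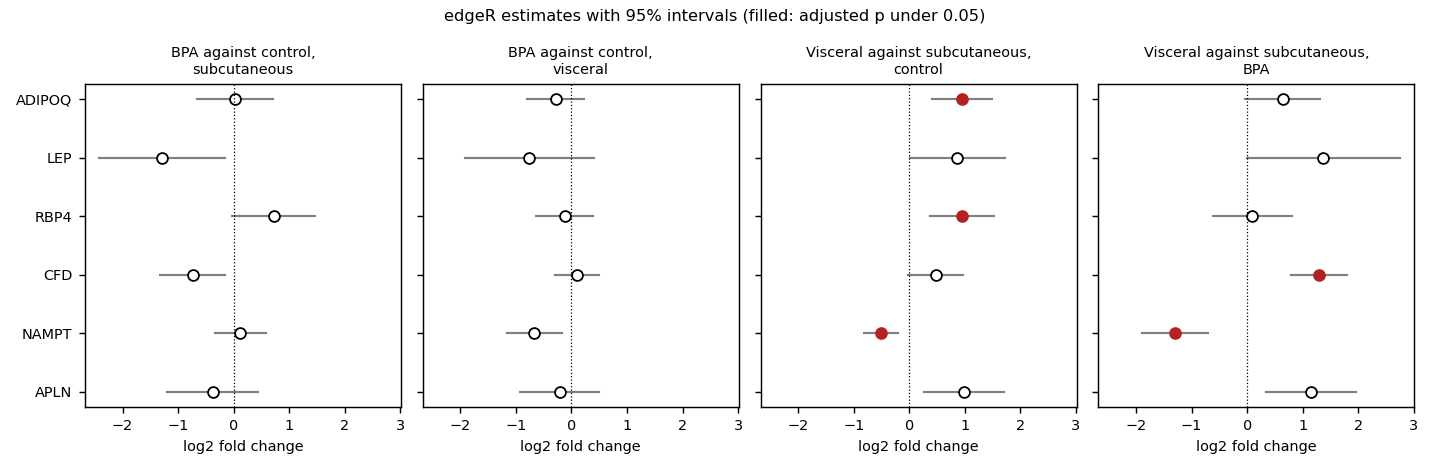
Estimated log2 fold change of each tested adipokine with its 95% interval in the 4 comparisons, with filled points for an adjusted p under 0.05. The 5 filled points are ADIPOQ, RBP4 and NAMPT between the control depots and CFD and NAMPT between the BPA depots.

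Levels were also set against ADIPOQ, the adipocyte product with the most counts, within each library. RBP4 had 7.51, 8.43, 9.59 and 11.95 CPM per 100 CPM of ADIPOQ in subcutaneous controls and 17.7, 15.3, 13.995 and 13.2 in subcutaneous BPA fat. The 4 BPA libraries lay above all 4 controls, and visceral fat had 8.60 to 10.5 in controls and 7.86 to 13.7 in BPA fat. How many genes separate these subcutaneous groups as a ratio to ADIPOQ was not computed. On level alone 7.45% of tested genes did, and RBP4 overlapped and was not called. LEP had 2.17 to 8.97 CPM per 100 CPM of ADIPOQ in subcutaneous controls and 1.08 to 2.39 in subcutaneous BPA fat, and these overlapped through control 928. CFD had 0.474 to 1.203 against 0.408 to 0.864. These ratios were chosen after the values were seen and were not tested.

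**Figure D4:**
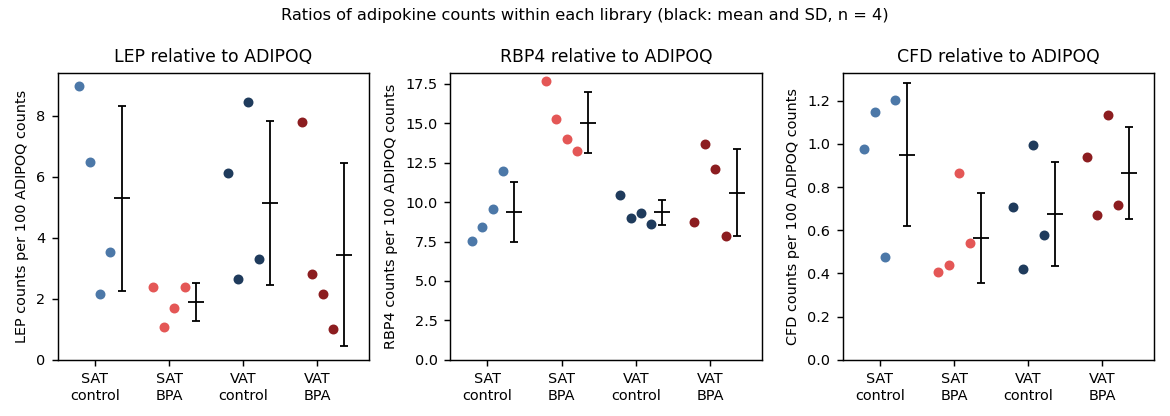
CPM of RBP4, LEP and CFD per 100 CPM of ADIPOQ (linear axes), with 1 point per library and the mean ± SD of each group of 4. RBP4 lies at 13.2 to 17.7 in subcutaneous BPA fat and at 7.51 to 11.95 in subcutaneous controls. The ratio was not tested, and the level of RBP4 itself overlapped between these groups.

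Within groups, adipokines fell into those that followed ADIPOQ and those that did not. Correlations of log2 CPM deviations from the group means over the 16 libraries, given as a description, were 0.861 for ADIPOQ with RBP4 and 0.611 for LEP with CFD. The other 13 pairs of tested adipokines lay between -0.427 and 0.358. The summed adipocyte markers, which hold no adipokine, had r = 0.914 with ADIPOQ and 0.871 with RBP4, but 0.228 with LEP, 0.225 with NAMPT, 0.16 with CFD and -0.122 with APLN. All these values share libraries, depth and scaling factors.

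Among 12374 genes, those with a symbol and a mean of at least 1 CPM, the 3 with the most similar deviations were taken for each adipokine. The highest of so many values over few libraries tend to be high through the selection itself, so they are only a description. For ADIPOQ they included FUNDC2 (r = 0.932) and PRXL2A (0.929). For LEP they were FZD8, a Wnt receptor (0.944), LRRC39 (0.922) and BTC, the growth factor betacellulin (0.906). For CFD they were MPEG1 and LAPTM5, which are known from macrophages and other leukocytes (0.902 and 0.889), and RGL1 (0.871). For RBP4 they were NNAT, neuronatin (0.894), TALDO1, transaldolase of the pentose phosphate pathway (0.881), and SERHL2 (0.880). For NAMPT they were PPP2R5C (0.903), PPCS, an enzyme of coenzyme A synthesis (0.902), and ATP6V1E1, a subunit of the vacuolar proton pump (0.888). For APLN they were FGF11 (0.890), ZNF511 (0.884) and LGALS12, a galectin of fat cells (0.869). With group means kept, r over all libraries was lower for FZD8 (0.572), SERHL2 (0.318), PPP2R5C (0.554) and ATP6V1E1 (0.655). It was lowest for ZNF511 (0.287), with LGALS12 at 0.391, and the other genes named here had 0.818 to 0.933.

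The receptors and binding partners of the adipokines were called in no comparison by edgeR without a block or by DESeq2, 0 of 8 tested in each. With the replicate block, APLNR was called lower in visceral control fat. ADIPOR2 was the adiponectin receptor with the most counts, at 1194 ± 354 CPM in subcutaneous controls and 1493 ± 305 in visceral controls, against 128 ± 26.6 and 129.8 ± 16.6 for ADIPOR1. CDH13 (T-cadherin), which binds adiponectin multimers, had 369 ± 128 and 419 ± 103 CPM. LEPR had 21.6 ± 12.6 and 20.5 ± 11.1 CPM, and APLNR had 24.9 ± 12.5 and 15.5 ± 5.46. STRA6, the membrane receptor of RBP4, had too few counts to be tested: at most 4 counts in each group of 4 libraries except visceral BPA, which had 100. Of those 100 counts, 93 came from 977 (13.9 CPM), against 6, 1 and 0 in 910, 918 and 984.

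The counts for the lists below are read against the shares of all tested genes given above: 13.3% between control depots, 9.07% between BPA depots, and 0.709% and 0% for BPA in subcutaneous and visceral fat. Of the retinoid genes, to which RBP4 delivers its cargo, 2 of 11 rose and 1 fell from subcutaneous to visceral fat in each treatment. The retinaldehyde dehydrogenases ALDH1A2 and ALDH1A1, which make retinoic acid, rose by 2.97 ± 0.30 and 2.27 ± 0.28 in control fat (adjusted p = 0.000268 and 0.000859) and by 2.72 ± 0.53 and 1.71 ± 0.31 in BPA fat (0.0140 and 0.0119). CRABP2, which carries retinoic acid to the nucleus, fell by 2.86 ± 0.59 in control fat (0.0114) and by 2.31 ± 0.46 in BPA fat (0.0149; 0.0506 without subcutaneous BPA 922). The median of the 11 tested genes was -0.05 in control and -0.25 in BPA fat, against -0.01 and 0.02 for all genes. In the treatment comparisons none of the retinoid genes passed by edgeR, and DESeq2 called ALDH1A3 in subcutaneous fat (-0.83, 0.0208).

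Of the NAD genes around NAMPT, 1 of 10 rose in visceral control fat, the NAD-synthesising enzyme NMNAT1 (0.71 ± 0.14, adjusted p = 0.00963; 0.0573 in the fit of all 16 libraries). In BPA fat 1 of 11 fell, the nicotinamide methyltransferase NNMT (-2.52 ± 0.50, 0.0153; 0.0606 without subcutaneous BPA 922). These counts of 1 lie near the shares of all tested genes (7.17% higher in visceral control fat, 3.94% lower in visceral BPA fat). None of 11 and 12 tested NAD genes passed for BPA against control in subcutaneous and visceral fat, by edgeR or DESeq2. Of the leptin signalling genes, 1 of 8 fell in visceral control fat, SOCS3, a feedback inhibitor of leptin signalling (-1.0 ± 0.22, 0.0162). It was not called without subcutaneous controls 902 and 924 together (0.0908), in the fit of all 16 libraries (0.0646) or after thinning every library to the lowest total (0.0669). That count of 1, too, lies near the share of all tested genes (6.16% lower). None of the 8 passed in the other comparisons by edgeR, and DESeq2 called STAT3 higher in visceral than in subcutaneous BPA fat.

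Of 10 genes for adiponectin assembly and signalling, 2 rose in visceral control fat, PRKAA2, a catalytic subunit of the energy sensor AMPK (0.81 ± 0.16, adjusted p = 0.0107; 0.0695 without subcutaneous controls 902 and 924), and GSTK1, which helps adiponectin multimers form (0.70 ± 0.18, 0.0297). In BPA fat 1 rose, ERP44, which retains adiponectin in the secretory pathway (0.54 ± 0.15, 0.0485; 0.0622 with upper quartile scaling). That count of 1 in BPA fat lies near the share of all tested genes (5.13% higher). The median was 0.33 in control fat and 0.44 in BPA fat, against -0.01 and 0.02 for all genes. The call of GSTK1 held only without visceral control 924 or subcutaneous control 902 and was lost in the other 6 omissions of 1 library (0.0541 to 0.0815), with the replicate block (0.60, adjusted p = 0.0688), in the fit of all 16 libraries (0.0573) and after thinning (0.0843). The call of ERP44 held only without visceral BPA 977 and was lost in the other 7 (0.08 to 0.137).

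Of the alternative complement genes around CFD, all 8 tested had negative estimates for BPA against control in subcutaneous fat (median -1.08, against -0.01 for all genes). Only C5AR1, the receptor of the complement fragment C5a on myeloid cells, passed the test (-1.33 ± 0.18, adjusted p = 0.00868), and DESeq2 also called CFP. Without subcutaneous controls 902 and 924 the estimate of C5AR1 was -1.25, with an adjusted p of 0.126. The summed macrophage markers lay at 364 to 557 CPM in these BPA libraries and at 644 to 910 in the controls, with 10 of 10 tested markers at negative estimates and 1 called (TYROBP, a call that held only without control 928; DESeq2 called 6, and none was called without controls 902 and 924), and their part in the CFD and complement values was not tested. CFD itself had r = 0.217 with the macrophage sum within groups. MPEG1 and LAPTM5, named above, were picked from 12374 genes for their similarity to CFD (0.902 and 0.889). Their values therefore cannot be set against that of the sum. The macrophage sum adds plain CPM, so markers with many counts weigh most, such as MRC1 at 416 of a mean 950 CPM in visceral controls. In visceral control fat 2 of 9 complement genes fell, MASP1, a protease that can cleave pro-factor D (-1.595 ± 0.30, 0.00795), and CFP, properdin, which stabilises the alternative C3 convertase (-1.26 ± 0.36, 0.0441). The call of CFP held only without subcutaneous control 928 or 931 and was lost in the other 6 omissions of 1 library (0.0661 to 0.121), and without subcutaneous controls 902 and 924 together CFP was at -0.45 (0.409). In visceral BPA fat 1 of 9 rose, near the share of all tested genes (5.13% higher). It was CFI, a protease that inactivates C3b (2.47 ± 0.62, 0.0339). Its call was lost without visceral BPA 910 (0.0622) or 918 (0.0598) or subcutaneous BPA 918 (0.0846), 941 (0.0896) or 977 (0.0839).

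Of the other secreted factors of fat, 4 of 26 rose and 5 fell from subcutaneous to visceral control fat, and 4 of 23 rose in BPA fat. Without subcutaneous controls 902 and 924, 3 of 28 rose and 2 fell in control fat. VEGFA, the vascular growth factor, rose by 1.36 ± 0.25 in control fat (adjusted p = 0.00691) and by 1.38 ± 0.28 in BPA fat (0.0170; 0.058 without subcutaneous BPA 922 and 0.0502 without 941). SFRP5, a secreted Wnt inhibitor, rose by 1.43 ± 0.30 (0.0132) and 2.19 ± 0.37 (0.00902). RARRES2, chemerin, rose by 0.68 ± 0.14 in control fat (0.0116), and IGF1 by 1.48 ± 0.29 in BPA fat (0.0149). GREM1, a secreted BMP antagonist, fell by 4.41 ± 0.53 in control fat (0.000825). None of the 24 and 25 tested passed for BPA against control in subcutaneous and visceral fat by edgeR. DESeq2 called 5 of the 24 lower with BPA in subcutaneous fat: FBN1 (-0.74, 0.00317), FSTL1, GREM1, METRNL and SFRP5.

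Of 14 transcription factors of adipocyte genes, 4 rose in visceral control fat: EPAS1, a hypoxia-inducible factor (1.13 ± 0.17, adjusted p = 0.00268), PPARG, the main regulator of fat cell formation (0.94 ± 0.17, 0.00568), NR1H3 (0.71 ± 0.13, 0.00712) and MLXIPL (0.70 ± 0.16, 0.0174). NR1H3 was not called without subcutaneous controls 902 and 924 (0.0527), nor MLXIPL in the fit of all 16 libraries (0.0897). In BPA fat EPAS1 was the only one called (0.84 ± 0.23, 0.0485), near the share of all tested genes (5.13% higher). That call held only without visceral BPA 977 and was lost in the other 7 omissions of 1 library (0.0514 to 0.118). PPARG had 0.64 ± 0.23 there (0.101) and was called without visceral BPA 977 (0.80, 0.0215). In subcutaneous fat 1 of 14 rose with BPA, MLXIPL, a glucose-responsive activator of fat synthesis genes (1.39 ± 0.19, 0.00868). Without subcutaneous controls 902 and 924 its estimate was 1.49, with an adjusted p of 0.126. DESeq2 also called NR1H3 and SREBF1 there. MLXIPL had 0.93 ± 0.27 in visceral fat (0.658).

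**Figure D5:**
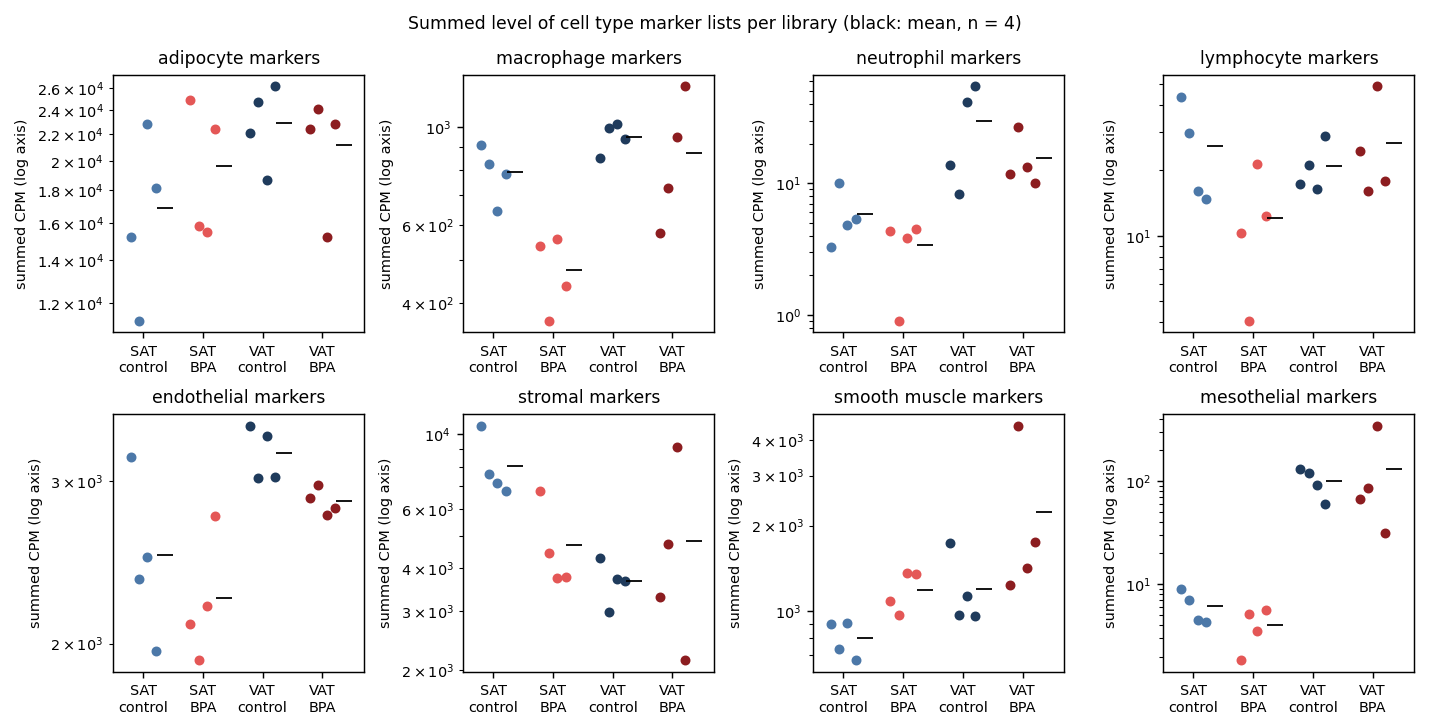
Summed CPM of each cell type's markers (log axis), with 1 point per library and a bar at the mean of each group of 4. Mesothelial sums are higher in visceral fat, and macrophage sums are lowest in subcutaneous BPA fat.

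Markers of fat cells and of other cells moved with some of these comparisons. Of 16 adipocyte markers, 4 rose in visceral control fat (PPARG, LPL, DGAT2 and ACSL1; median 0.47) and none passed in BPA fat (median 0.03), where ADIPOQ and RBP4 were not called either. For BPA against control, 15 of 16 had positive estimates in subcutaneous fat (median 0.27) and 7 of 16 in visceral fat (median -0.03), and edgeR called none. For the difference of BPA effects all 16 had negative estimates (median -0.38), but edgeR called none. These depot differences are therefore not shown to differ between treatments. Without subcutaneous controls 902 and 924, PPARG alone of these markers was called, with LPL at 0.0579, DGAT2 at 0.0763 and ACSL1 at 0.222. ACSL1 was also not called in the fit of all 16 libraries (0.0654) or in 6 of 8 omissions of 1 library (0.0727 to 0.114), holding only without visceral control 924 or subcutaneous control 928. With the replicate block 8 of the 16 rose. Adipocyte sums ranged over 11276 to 22874 CPM in subcutaneous controls, 15521 to 24880.0 in subcutaneous BPA, 18686 to 26156 in visceral controls and 15232 to 24070.0 in visceral BPA fat. Macrophage sums were 849 to 1015 CPM in visceral controls and 576 to 1237 in visceral BPA fat, and 4 of 10 macrophage markers rose from subcutaneous to visceral BPA fat, the comparison in which CFD was called. In control fat 1 of 10 rose, MRC1 (0.85 ± 0.20, adjusted p = 0.0206; 0.134 in the fit of all 16 libraries), near the share of all tested genes (7.17% higher). Stromal sums were 6775 to 10574 CPM in subcutaneous controls and 3748 to 6786 in subcutaneous BPA fat, where 2 of 11 markers, FN1 and THY1, fell with BPA. Of these 11 markers, 10 had negative estimates in that comparison (median -0.97). DESeq2 called 7 of the 11, and without controls 902 and 924 neither FN1 (0.247) nor THY1 (0.252) was called. The call of FN1 was lost in 5 and that of THY1 in 6 of 8 omissions of 1 library. Visceral controls had stromal sums of 2973 to 4308 CPM, all below the subcutaneous controls, and visceral BPA fat had 2146 to 9169. In the comparison of control depots, in which ADIPOQ, RBP4 and NAMPT were called, 4 of 11 stromal markers fell: COL1A2 (-1.90), COL1A1 (-1.82), COL3A1 (-1.03) and PDGFRB (-0.86). Without subcutaneous controls 902 and 924, COL3A1 was not called (0.152), and on omissions of 1 library 2 to 4 of the 11 fell. Mesothelial sums were 1.85 to 9.03 CPM in subcutaneous and 31.5 to 343 CPM in visceral fat, where 6 of 7 tested markers rose in controls. Smooth muscle sums were 671 to 908 CPM in subcutaneous controls and 970 to 1356 in subcutaneous BPA fat. They were 956 to 1730 CPM in visceral controls and 1230 to 4507 in visceral BPA fat, where 918 had the highest. All 8 smooth muscle markers had positive estimates for BPA against control in each depot. Only LMOD1 passed by edgeR, in subcutaneous fat (1.299, adjusted p = 0.043). Its call was lost in 6 of 8 omissions of 1 library and without controls 902 and 924 together (1.31, 0.221). Endothelial sums were 1919.6 to 3189.8 CPM in subcutaneous and 2758 to 3447 in visceral fat. In the same order, lymphocyte sums were 4.06 to 43.4 and 16.1 to 48.8, and neutrophil sums 0.902 to 9.98 and 8.23 to 54.7 CPM. In visceral control fat 1 of 10 endothelial markers rose, KDR (1.06 ± 0.15, adjusted p = 0.0017), near the share of all tested genes (7.17% higher). There 1 of 3 tested neutrophil markers also rose, LTF (4.66 ± 0.86, 0.00684), which made up 21.9 of the mean neutrophil sum of 29.5 CPM in visceral controls. KDR (0.93 ± 0.24, 0.0357) and LTF (2.78 ± 0.69, 0.0340) also rose in BPA fat. Those 2 calls were lost in 7 and 5 of 8 omissions of 1 library. The defining neutrophil markers S100A8, S100A9 and CSF3R, all with few counts, had lower means in visceral than in subcutaneous controls. They were at 0.0203 against 0.365, 0.613 against 1.09 and 1.12 against 1.28 CPM. In BPA fat their means were higher in visceral fat. The neutrophil marker S100A8 was at 0 in 11 libraries and the mesothelial marker MSLN in 4. The part of these cell types in the adipokine values was not tested.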

How the data were processed

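RNA was sequenced from 16 fat samples after ribosomal depletion with a low-input kit, per the labels' protocols. Per the submitters' processing notes, tools included FastQC 0.11.5, MultiQC 0.9, STAR 2.6.0c and, for counting, featureCounts (Subread 1.6.1). In the deposited table are whole-number counts per gene and library made by the authors. Its name calls them normalized, but 0 values were other than whole and totals ranged from 3046126 to 14305764, so they were treated as raw counts. The name of the build is not given in the sources used here, nor are the annotation release and strand setting. The authors' gene models give sequence, start, end and length.

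Counts were filtered with filterByExpr (10 counts at the median depth, 15 in total), scaled by TMM and tested, two-sided, with edgeR 4.0.16's quasi-likelihood test in R 4.3.3. Benjamini-Hochberg adjustment ran over all tested genes, and an adjusted p under 0.05 was called. CPM uses TMM factors over 16 libraries, which were 1.01 to 1.12 in subcutaneous and 0.929 to 0.987 in visceral fat. Correlations use log2 CPM with a prior count of 2. Standard errors and intervals come from the estimate and its F statistic. Scripts were tested on simulated data. Control titles 902, 924 and 928 occur in both depots, and same-numbered libraries correlated (r of deviations 0.287, 0.400 and 0.332), which pairs them. The main tests between depots and of the difference of BPA effects ignore this pairing, and the blocked fits are alternatives. For BPA 918 and 977 (0.167 and 0.0313) pairing was not established. Alternatives were DESeq2 1.42.0, limma voom 3.58.1 with the number as a block, other scalings, filters, thinning and omissions. The adipokines, the 8 gene lists and the 8 marker lists were chosen with earlier results of these data known. Genes named are the called members of each list with the smallest p (up to 4, or 2 uncalled), with values given for some. Intervals cover the spread between samples. One gene similar to ADIPOQ is not reported here.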

Additional observations from a re-analysis of the deposited data

Results flagged for a closer look

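In 28 sets of 4 values (7 adipokines in 4 groups), 2 held a library whose gap to its nearest neighbour was large against the range of the set, by Dixon's criterion, and chance flags about 1 in 20. LEP in subcutaneous control 902 had 562.7 CPM, against 155 to 224 in the other controls. NAMPT in subcutaneous BPA 922 had 117.1 CPM, against 60.6 to 69.2 in the other BPA libraries.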

How the results depend on the processing

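The 3 adipokine calls between control depots became 1 in the fit of all 16 libraries, 6 with the replicate block, 2 by limma voom with the block (ADIPOQ and RBP4), 1 without subcutaneous controls 902 and 924 and 0 to 3 when single libraries were left out. The 2 calls between BPA depots became 1 to 2 on omissions. Because BPA pairing was not established, its blocked fit is given only here: CFD 0.90 (adjusted p = 0.0318), NAMPT -1.44 (0.0016), APLN 1.6 (0.0432), ADIPOQ 0.01, LEP 0.06 and RBP4 -0.24. BPA against control shares no numbers, so no paired fit exists within a depot.

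Genes called for BPA in subcutaneous fat (96) were 464 by DESeq2, 173 without a filter, 54 with the stricter filter (50 counts in 4 libraries), 46 in the fit of all 16 libraries, 1 by limma voom with the block and 0 without controls 902 and 924, and 32 to 128 on omissions. The omission of 902 and 924 was not planned and leaves fewer controls, so calls are harder to reach there. For BPA in visceral fat (0) DESeq2 called 5. Between control depots (1928) there were 1138 without controls 902 and 924 and 1043 to 1755 on omissions, and between BPA depots (1250) 2197 by DESeq2, 2408 in the fit of all 16 libraries, 2300 by voom with the block and 369 to 2206 on omissions. DESeq2 called 11 genes for the difference of BPA effects. The cause was not tested.

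Signs turned for uncalled estimates: ADIPOQ for BPA in subcutaneous fat (-0.00372 by voom with the block, -0.14 without controls 902 and 924, -0.147 to 0.211 on omissions), NAMPT there (-0.15 to 0.228), CFD for BPA in visceral fat (-0.0479 to 0.168), RBP4 between BPA depots (-0.236 with the replicate block, -0.139 to 0.40), and, for the difference of BPA effects, LEP (-0.197 without controls 902 and 924, -0.308 to 0.831) and APLN (-0.105 to 0.388). Subcutaneous libraries had fewer counts, which limits APLN and RETN most.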
